A study of Homo sapiens with 2 samples.

Results

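The 34 genes described here act when a DNA double-strand break or a crosslink between the DNA strands has to be repaired. They were chosen by name and not by a rule on level, but with earlier results of these data known. Each was found in 1 row of the expression tables, so that they are 34 of 57736 genes. They comprise 14 genes of homologous recombination, 10 Fanconi genes, 4 end joining genes and 6 genes of break signalling. Each gene was placed in 1 group, although some homologous recombination genes, such as BRIP1, are also counted as Fanconi genes. Poly(A)+ RNA of HEK293T cells was sequenced with 50 bp reads in 2 replicates, which form the only group. HEK293T is a human line from embryonic kidney, labelled as wild type, although the line carries the SV40 large T antigen, a viral protein that binds p53 and RB. The labels name no treatment and do not say whether the replicates came from separate cultures, so the spread between them may be technical. Nothing was compared between conditions, and the comparisons below are between genes and between the replicates.

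A double-strand break can be repaired by joining its ends or by copying an intact sister strand. In end joining the Ku heterodimer of XRCC6 (Ku70) and XRCC5 (Ku80) binds the ends and recruits the kinase encoded by PRKDC, and DNA ligase IV, encoded by LIG4, seals them. In homologous recombination the ends are first cut back by MRE11, RAD50, NBN and RBBP8 (CtIP), after which BRCA1, BARD1, PALB2, BRCA2 and a family that includes RAD51C and XRCC3 prepare the single strand for pairing with the intact copy. The Fanconi core complex attaches ubiquitin to FANCD2 and FANCI when a replication fork meets a crosslink. ATM and ATR are the kinases that signal damage to CHEK2 and CHEK1, TP53BP1 favours end joining by shielding ends, and PARP1 marks breaks with poly(ADP-ribose).

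The libraries held 10593491 estimated counts (replicate 1) and 10104118 (replicate 2), of which the 34 genes took 0.606% and 0.609%. Levels are given as TPM, a share of the transcripts in a library that is corrected for transcript length. Detection means that both replicates reached a TPM of 1. This held for 27.7% of all genes and for 63.7% of protein-coding genes. Of 10 kidney markers, 1 was detected, LRP2 with TPM values of 8.28 and 9.96, and AQP2, UMOD, SLC12A3, SLC22A6 and SLC34A1 had 0 counts in both replicates, although the labels give kidney as the tissue.

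All but 1 of the 34 genes were detected (33, or 32 with a TPM of at least 5). Their levels ran from a mean TPM of 630 for PARP1 to 0.135 for FANCF. The median TPM of the 34 genes was 29.5 in replicate 1 and 29.1 in replicate 2, while detected protein-coding genes had medians of 21.4 and 21.0. Above those medians in both replicates lay 21 of the genes, and 13 lay below in both. PARP1, XRCC6, XRCC5 and PRKDC were the only members above the 90th percentile of detected protein-coding genes. These 4 genes held 61.5% of the summed TPM of the 34 genes in replicate 1 and 62.0% in replicate 2.

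**Figure D1:**
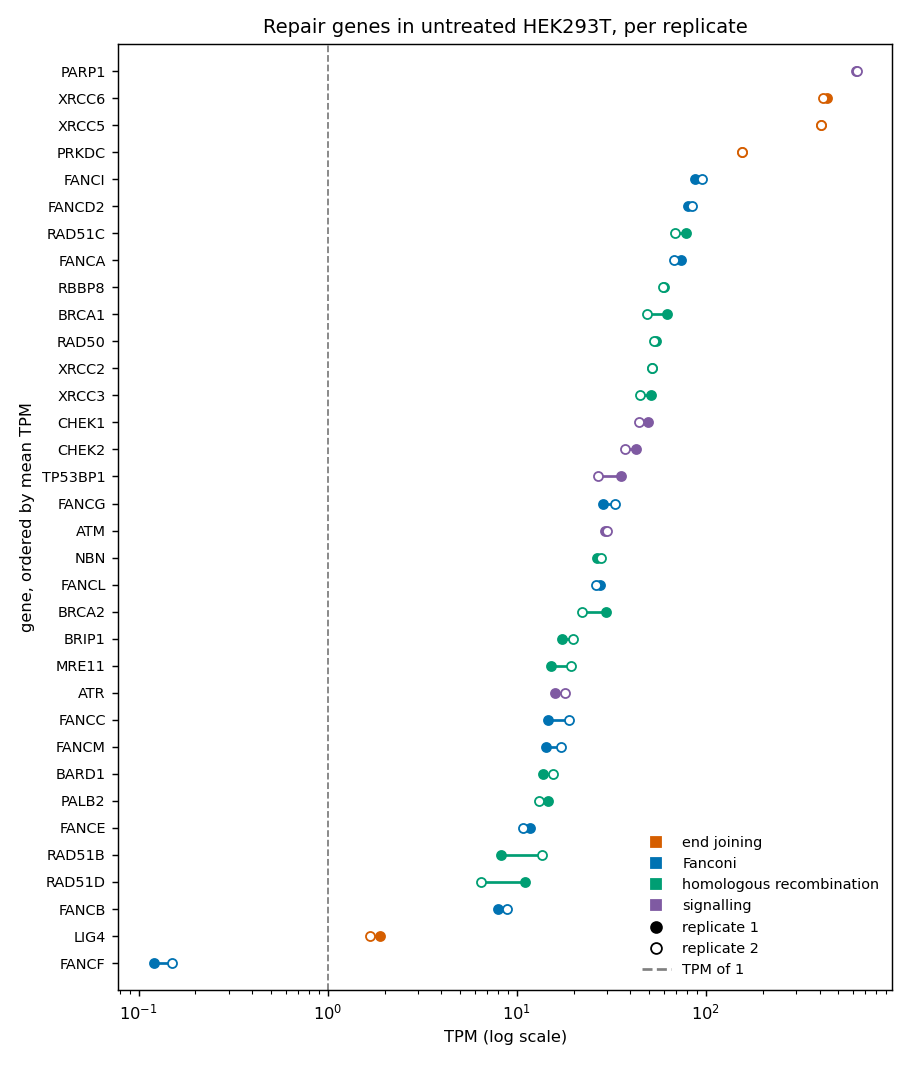
TPM of each of the 34 genes (log axis) in replicate 1 (filled) and replicate 2 (open), ordered by the mean and coloured by pathway, with a dashed line at a TPM of 1. PARP1 and 3 end joining genes stand at the top between 156 and 633, FANCF alone lies below the line at 0.12 and 0.15, and LIG4 lies just above it at 1.89 and 1.68.

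The sequence before the start of the main (canonical) transcript was read from the GRCh37 genome for all 34 genes, 250 bases each. Shown are genes from both ends of the range of levels: PARP1 and XRCC6 with the highest levels, FANCI as the highest Fanconi gene, and RAD51D near the lower end. Only the stretch that no annotated exon covers is printed, from 5′ to 3′ on the strand of the gene, and capitals mark a GC box (GGGCGG or CCGCCC), the element that the factor SP1 is known to bind. The stretches are chr1:226595856-226596044 (minus strand, directly before PARP1), chr22:42017049-42017166 (plus, directly before XRCC6), chr15:89786960-89787175 (plus, directly before FANCI) and chr17:33446880-33447040 (minus, before the canonical start of RAD51D but inside the gene, since other RAD51D transcripts start farther upstream).
PARP1: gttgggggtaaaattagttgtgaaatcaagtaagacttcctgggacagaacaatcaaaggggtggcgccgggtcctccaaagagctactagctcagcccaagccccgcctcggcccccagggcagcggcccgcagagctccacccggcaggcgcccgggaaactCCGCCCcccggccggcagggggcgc
XRCC6: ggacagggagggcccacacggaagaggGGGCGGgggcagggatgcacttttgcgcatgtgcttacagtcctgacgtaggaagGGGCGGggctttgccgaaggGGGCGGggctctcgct
FANCI: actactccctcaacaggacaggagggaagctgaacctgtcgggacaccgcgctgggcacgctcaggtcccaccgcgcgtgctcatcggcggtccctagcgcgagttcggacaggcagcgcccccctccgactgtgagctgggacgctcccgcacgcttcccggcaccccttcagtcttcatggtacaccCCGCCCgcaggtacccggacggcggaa
RAD51D: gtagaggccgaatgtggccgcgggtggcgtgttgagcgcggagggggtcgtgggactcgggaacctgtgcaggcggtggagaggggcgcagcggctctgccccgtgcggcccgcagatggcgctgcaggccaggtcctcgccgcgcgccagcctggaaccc

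The printed XRCC6 stretch holds 3 GC boxes, those of PARP1 and FANCI hold 1 each, and that of RAD51D holds none. Over the whole 250 bases a GC box was found in 18 of the 34 genes (52.9%), against 60.0% of 19110 protein-coding genes and 73.6% of the 12269 detected ones. A CCAAT box (CCAAT or ATTGG) was found in 13 (38.2%), against 34.3% and 35.2%. XRCC3 had the most, with 5 matches beside 3 GC boxes. An E2F element (TTTCCCGC or TTTGGCGC, either strand) was found only in FANCC, which is 2.94% of the genes against 2.67% of all protein-coding genes and 3.30% of the detected ones. The letters TATAAA or TTTATA were in none of the 34 windows and in 9.02% of all protein-coding windows and 4.87% of the detected ones. The letters TTTGAA or TTCAAA were in 3 windows, those of ATM, BRIP1 and FANCC, which is 8.82% against 10.0% of all and 7.34% of the detected ones. The median number of CpG dinucleotides was 21, against 18 in all protein-coding windows and 23 in the detected ones. CHEK1 and RAD51B had the fewest CpG, 6 each, and levels of 46.9 and 10.9 TPM. These are matches of letters, not sites shown to be bound.

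Among the 34 genes, end joining had the highest median level of the pathways, 282 TPM in replicate 1 and 281 in replicate 2. It also held the lowest detected gene. XRCC6 (chromosome 22 from 42017167 to 42060052, GRCh37) had TPM values of 437 and 416. XRCC5 (chromosome 2 from 216972187 to 217071026) had 408 and 407. These subunits work as a pair, and their TPM ratio was 1.05 ± 0.0338 (SD, n = 2). The replicate values of XRCC6 and XRCC5 did not overlap, but the credibility intervals that the authors deposited with the values did, with 391 to 422 against 354 to 407 in replicate 1. PRKDC, the catalytic subunit of the DNA-dependent protein kinase, had a TPM of 156 in both replicates, 0.383 of the level of XRCC5 in each of them.

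LIG4 (chromosome 13 from 108859787 to 108870716) stood far below its partners in end joining. It had 55 and 48 counts, which is a TPM of 1.89 and 1.68, and exact Poisson intervals allow 1.42 to 2.46 and 1.24 to 2.23 for counting error alone. XRCC5 was 216-fold higher in replicate 1 and 242-fold higher in replicate 2. Only 3.99% of detected protein-coding genes had a lower mean TPM than LIG4. In RNA pooled from many cells, a low level in every cell and a higher level in few cells cannot be told apart. Among 16 other end joining genes, fixed by name, 15 were detected, with a median TPM of 25.3 and 25.9. XRCC4, the partner that stabilises ligase IV, had a TPM of 9.54 and 9.07. PAXX, PARP2 and XRCC1 were the highest of this list, at 56.1 and 59.0, 46.6 and 45.2, and 46.9 and 41.8. The lowest were APLF with 1.14 and 1.16 and DNTT, the lymphoid polymerase, with 0 counts in both replicates. No gene of this list reached the level of PRKDC.

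The fold between the highest and the lowest gene was smallest for homologous recombination. All 14 were detected, with medians of 28.1 and 25.1 TPM, and the highest was 8.39 times the lowest, against 37.1 for signalling, 239 for end joining and 678 for the Fanconi genes. When counts were divided by the length of the canonical transcript, these folds were 33.9 for homologous recombination, 51.6, 227 and 434. Single genes set the other folds in TPM. Without PARP1 the signalling genes had mean TPM of 17.0 to 46.9, and without LIG4 the end joining genes 156 to 427. Both ranges are narrower in fold than that of homologous recombination. Without FANCF the Fanconi genes ran from 8.4 to 91.5. In 8 of the 14 homologous recombination genes the TPM lay above the median of detected protein-coding genes in both replicates, and in 6 below.

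Among BRCA1, BRCA2 and the genes whose products bind them, BRCA1 was the highest with 62.2 and 49.2 TPM. Its partner BARD1, with which it forms a ubiquitin ligase, had 13.8 and 15.6. BRCA1 thus exceeded BARD1 in both replicates, 4.51-fold in replicate 1 and 3.14-fold in replicate 2, and the ratio of 3.83 ± 0.966 (SD, n = 2) had a wide spread. BRCA2, which acts on the resected strand, had 29.6 and 22.1 TPM. PALB2, which links BRCA2 to BRCA1, had 14.7 and 13.1, and the ratio of BRCA2 to PALB2 was 1.85 ± 0.238 in TPM and 1.21 ± 0.123 in counts per kb of the canonical transcript (SD, n = 2). BRIP1, the helicase bound by BRCA1, had 17.4 and 19.8. The median of these 5 genes was 18.6 ± 1.74 TPM (SD, n = 2), below that of the other subgroups of homologous recombination.

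RAD51B, RAD51C, RAD51D, XRCC2 and XRCC3, which are related in sequence, split into 3 higher and 2 lower genes. RAD51C had 79.0 and 68.4 TPM, XRCC2 51.9 and 51.8, and XRCC3 51.4 and 45.0. RAD51B had 8.23 and 13.6 and RAD51D 11.1 and 6.44, so that these genes overlapped and their order could not be told. RAD51B, RAD51C, RAD51D and XRCC2 form 1 complex, in which the level of RAD51C was 9.59 and 5.03 times that of RAD51B and 7.10 and 10.6 times that of RAD51D. In counts per kb of the canonical transcript the mean ratios were 4.11 and 19.3. The lower genes rested on few reads, 63.0 and 79.9 counts for RAD51B and 123 and 75.2 for RAD51D.

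Of the genes that cut back the ends, RBBP8 had 59.9 and 59.7 TPM and RAD50 54.9 and 53.2. NBN had 26.7 and 28.1 and MRE11, the nuclease of the complex, had 15.3 and 19.3. MRE11, RAD50 and NBN form 1 complex, and RAD50 was 3.18 ± 0.594 times and NBN 1.60 ± 0.207 times the level of MRE11 (SD, n = 2). MRE11 was the lowest of the 4 genes in both replicates.

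The 24 other homologous recombination genes of a list fixed by name were all detected, with median TPM values of 23.1 and 23.6. SEM1, a small protein bound by BRCA2, had 135 and 129 TPM, EXO1, a resection nuclease, 125 and 114, and RAD51AP1 52.8 and 56.5. At the lower end stood SWSAP1 with 4.64 and 3.73, WRN with 7.95 and 8.18 and RMI1 with 8.60 and 12.6. Of 13 genes of meiotic recombination 6 were detected. They included DMC1, a recombinase of meiosis, with 14.7 and 14.0 TPM, while SPO11, which makes the meiotic breaks, had 0 counts in both replicates. The highest of this list were MSH5 with 26.7 and 22.1 and MND1 with 24.9 and 19.1, and SYCP1, HORMAD2 and RAD51AP2 also had 0 counts.

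The Fanconi genes were detected in 9 of 10 cases, with medians of 21.2 and 22.6 TPM. The substrates of the pathway were the highest, FANCI with 87.3 and 95.8 TPM and FANCD2 with 80.5 and 84.9. Their ratio was 1.11 ± 0.0316 (SD, n = 2), and it was 1.10 ± 0.00914 when counts per kb of the canonical transcript were used. The 8 genes of the core complex had a median of 16.2 ± 2.51 TPM (SD, n = 2) and ranged widely. FANCA had 73.9 and 67.7 TPM. FANCG, which binds FANCA, had 28.6 and 32.9, and the ratio of FANCA to FANCG was 2.32 ± 0.374 in TPM and 1.38 ± 0.0306 in counts per kb (SD, n = 2). FANCL, the ubiquitin ligase of the complex, had 27.8 and 26.3. FANCC had 14.7 and 18.9, FANCM, the helicase that anchors the complex on DNA, 14.3 and 17.1, and FANCE 11.8 and 10.8. FANCB, which is X-linked and binds FANCL, had 7.93 and 8.84.

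FANCF (chromosome 11 from 22644079 to 22647369, minus strand) was the 1 member not detected. Its estimated counts were 3 and 3.49, at TPM values of 0.12 and 0.15. The exact Poisson interval of 3 counts, 0.619 to 8.77, corresponds to 0.0248 to 0.351 TPM in replicate 1 and 0.0266 to 0.377 in replicate 2, so both upper limits lie below a TPM of 1 as far as counting error goes. The gene has 1 exon and 1 annotated transcript of 3291 nt (3309 nt in the authors' values), so a choice between transcripts played no part in its value. Exons of GAS2 on the opposite strand overlap it by 315 nt, and GAS2 had 1 count in each replicate. FANCF protein joins FANCC and FANCE to the rest of the core complex. FANCC and FANCE were both detected, and FANCE was the lower of them.

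Other Fanconi genes, 14 fixed by name, were all detected, with medians of 46.7 and 42.2 TPM. The highest were CENPX with 100.2 and 99.6, USP1, which removes ubiquitin from FANCD2, with 89.6 and 94.3, and UBE2T, the enzyme that works with FANCL, with 83.8 and 80.8. The lowest were FAAP24 with 8.15 and 6.35, SLX4 with 7.66 and 6.90 and FAN1 with 9.59 and 10.1. None of these 14 genes was as low as FANCF, and the lowest of them exceeded 7 TPM on average.

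All 6 signalling genes were detected, with medians of 39.0 and 33.6 TPM. PARP1 (chromosome 1 from 226547911 to 226595855) had 626 and 633 TPM and was the highest of the 34 genes in both replicates. In TPM the checkpoint kinases stood above the kinases that activate them. CHEK2 had 42.5 and 37.2 TPM and ATM 29.3 and 30.02, a ratio of 1.34 ± 0.148 in TPM and 2.78 ± 0.400 in counts per kb of the canonical transcript (SD, n = 2). The authors' posterior mean TPM, described below, was 43.5 and 41.2 for CHEK2 and 39.5 and 40.7 for ATM. Their intervals overlapped in both replicates, so the order of CHEK2 and ATM was not settled. CHEK1 had 49.6 and 44.3 and ATR 15.9 and 18.1, a ratio of 2.78 ± 0.467 in TPM and 1.89 ± 0.203 in counts per kb. TP53BP1 had 35.5 and 27.0. All 25 other signalling genes were detected, with medians of 38.9 and 40.2 TPM. RPA2, H2AX and RPA1, for subunits of the single-strand binding protein and the histone that marks breaks, were the highest with 170.2 and 169.3, 164 and 166, and 127 and 127. SHLD1 with 4.72 and 4.11, SHLD3 with 4.74 and 5.10 and ABRAXAS1 with 8.22 and 7.96 were the lowest. Shieldin, to which SHLD1 and SHLD3 belong, acts after TP53BP1.

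**Figure D2:**
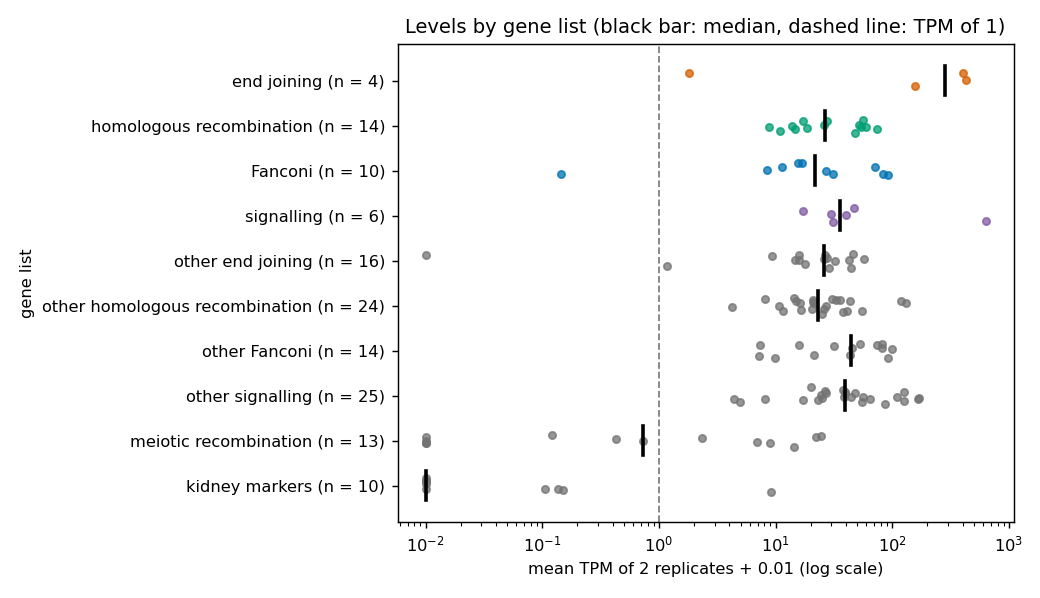
Mean TPM of 2 replicates plus 0.01 (log axis) for each gene of the 4 pathways (coloured) and of 6 further lists (grey), with the median of each list as a black bar and a dashed line at a TPM of 1. Of the 34 genes only FANCF lies left of the line, 6 of 13 meiotic genes and 1 of 10 kidney markers lie right of it, and the Ku genes, PARP1 and PRKDC lie right of most genes of the other lists.

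The study did not treat these pathways as a question, and their levels are compared here. End joining and homologous recombination are alternatives for a double-strand break, while the Fanconi complex acts at crosslinks. The median TPM of end joining was 10.6 ± 0.836 times that of homologous recombination and 12.9 ± 0.602 times that of the Fanconi genes (SD, n = 2). With only 4 end joining genes this median is the middle of XRCC5 and PRKDC. On means, which LIG4 lowers and XRCC6 raises, the ratios were 7.23 ± 0.207 and 6.99 ± 0.347. For the other genes fixed by name, the median TPM was 25.6 for end joining, 23.4 for homologous recombination and 44.45 for Fanconi genes. The high ratios thus held for the 34 genes and not for those lists. Among the 34 genes the Fanconi median was 0.827 ± 0.104 of that of homologous recombination (SD, n = 2). This order was not settled, since it turned to 1.04 ± 0.0811 on means and to 1.02 ± 0.0424 without FANCF. With BRIP1 counted as a Fanconi gene it was 0.646 ± 0.0838 (SD, n = 2), and no other gene was moved between these groups. Genes of 1 pathway are not replicates, so no test was made between pathways.

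In the order of all 34 genes, 16 of 33 neighbouring genes had replicate values that did not overlap. Over all 561 pairs of members, 522 (93.0%) did not overlap. Between neighbours the authors' intervals lay apart in both replicates in 6 cases: PARP1 above XRCC6, XRCC5 above PRKDC, PRKDC above FANCI, PALB2 above FANCE, FANCB above LIG4 and LIG4 above FANCF. From BRIP1 to PALB2, in ranks 22 to 28 with means of 18.6 to 13.9 TPM, no gene differed from the next beyond the replicate values. The same was true from FANCE to FANCB in ranks 29 to 32, so the order of neighbours within these runs could not be told. Genes farther apart in a run could still differ, as BRIP1 did from PALB2 and FANCE from FANCB.

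The deposited TPM lay outside the authors' own 95% interval for 8 of the 34 genes in replicate 1 and for 7 in replicate 2. The interval belongs to a posterior mean, a second estimate in the same tables that averages over the ways in which reads can be shared among transcripts. For PARP1, XRCC6, XRCC5 and XRCC2 the TPM lay above the interval in both replicates. PARP1, for example, had a posterior mean of 587 and 588, against the TPM of 626 and 633. For ATM and RAD51D it lay below. ATM had posterior means of 39.5 and 40.7 against a TPM of 29.3 and 30.02, and RAD51D had 15.6 and 12.5 against 11.1 and 6.44. On posterior means the median of end joining was 9.52 ± 0.518 times that of homologous recombination (SD, n = 2).

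TPM depends on the length that the estimate assigns to the transcripts of a gene. That length was under 80% of the canonical transcript for 24 of the 34 genes and under 50% for 7. The estimated length came from the authors' annotation and the canonical length from GENCODE release 44. The percentages, and the counts per kb, thus also hold differences between annotations. FANCE, with 1 transcript in the authors' annotation, had 2554 nt against 2576 nt. The median over the 34 genes was 64.9%, and 71.97% over detected protein-coding genes. The lowest were RAD51D with 16.1% of a canonical transcript of 9966 nt, MRE11 with 30.6% of 6841 nt, RAD51C with 36.0% of 2562 nt, FANCA with 36.9% and ATM with 37.1%. Genes of full length were also found, with LIG4, FANCF, FANCE and NBN at 100.3%, 100.5%, 99.1% and 98.0%.

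Dividing the counts by the canonical length instead kept the 6 highest genes in the same order, and FANCF remained the lowest. Over all members 9 genes moved by at least 5 ranks. RAD51C went from rank 7 to 15 and MRE11 from 23 to 31, the largest moves, while PALB2 went from 28 to 21. Of 20 pairs of genes within complexes or pathways, 13 ratios moved by over 1.5-fold and 2 changed direction. RAD51C was 1.42 ± 0.143 times XRCC2 in TPM and 0.546 ± 0.0357 times in counts per kb, and 1.53 ± 0.0118 times XRCC3 in TPM and 0.745 ± 0.0336 times in counts per kb (SD, n = 2). NBN over MRE11 rose from 1.60 to 5.19 and RAD50 over MRE11 from 3.18 to 5.50, while RAD50 over NBN fell from 1.98 to 1.06. XRCC6 over XRCC5 went from 1.05 to 1.56, since the length given to XRCC5 was 64.8% of its canonical transcript and that given to XRCC6 was 96.4%. XRCC5 over LIG4 was still 147 ± 8.18 (SD, n = 2).

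**Figure D3:**
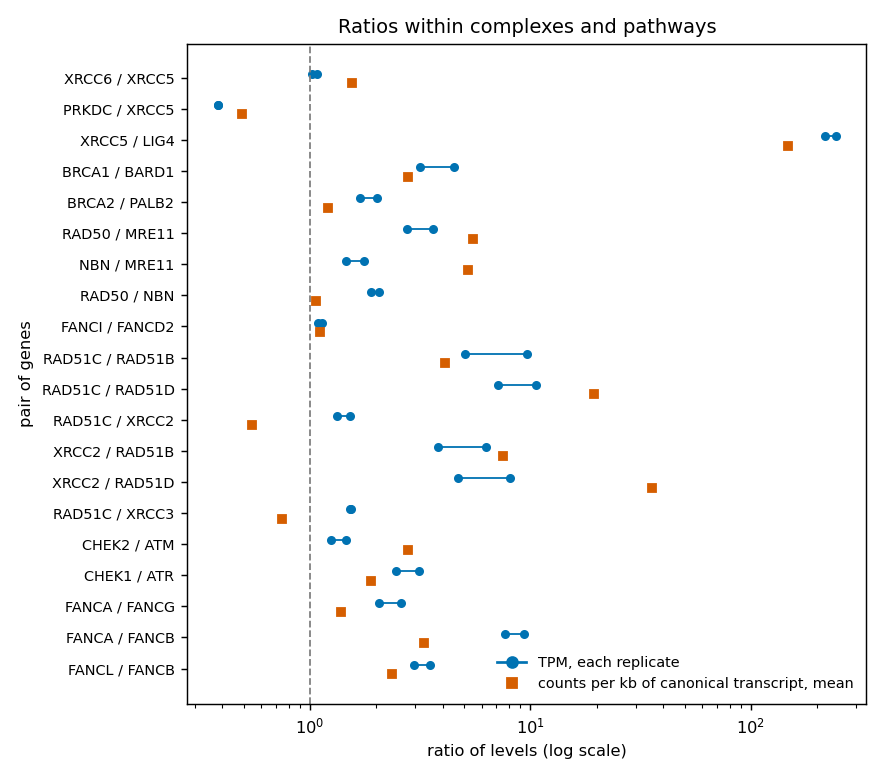
Ratio of levels (log axis) for 20 pairs of genes that work together, as TPM in each replicate (blue circles, joined) and as the mean of counts per kb of the canonical transcript (orange squares), with a dashed line at equal levels. RAD51C over XRCC2 and RAD51C over XRCC3 are the pairs whose symbols lie on opposite sides of the line, FANCI over FANCD2 is the pair whose symbols nearly coincide, and XRCC5 over LIG4 lies farthest right.

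The replicates were compared gene by gene to learn how far each level can be trusted. Among the 33 detected genes TPM differed by more than 1.2-fold between the replicates in 7: RAD51D, RAD51B, BRCA2, TP53BP1, FANCC, BRCA1 and MRE11. In 5 of these the change in estimated length was larger than the change in counts. BRCA2 is the clearest of them. Its counts were 1222 and 1261, higher in replicate 2, but its TPM was lower there, 22.1 against 29.6, and its estimated length was 7999 nt there against 5587 nt. BRCA1 had 1476 and 1460 counts with lengths of 3232 and 4184 nt, and TP53BP1 had 1175 and 1097 counts with lengths of 4491 and 5703 nt. For FANCC and MRE11 the length went the other way, from 3319 to 2532 nt and from 2239 to 1950 nt. For RAD51B and RAD51D the counts themselves differed more than the lengths. Over the members the median absolute log2 difference was 0.16 for TPM, 0.09 for CPM (counts scaled to the library total) and 0.10 for length, and over detected protein-coding genes it was 0.14 for TPM and 0.08 for length.

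**Figure D4:**
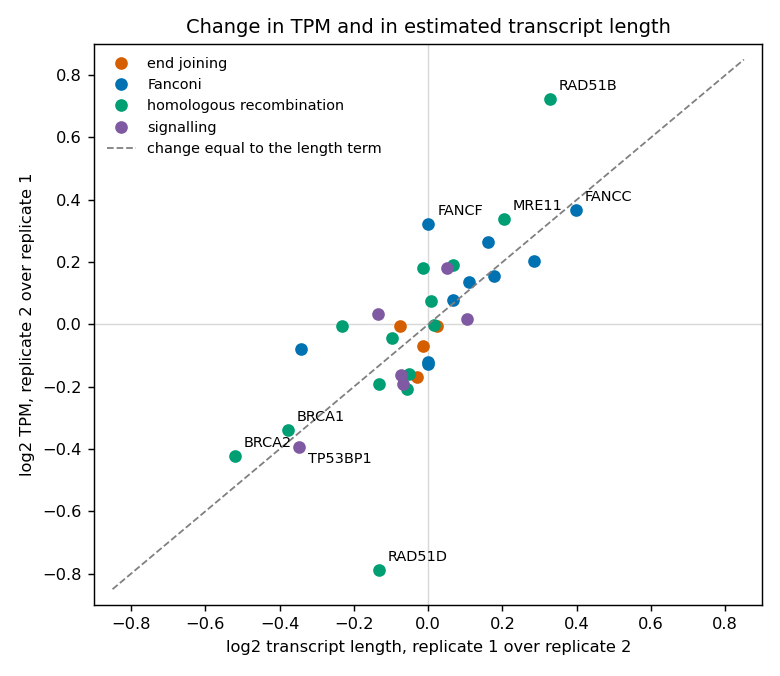
Log2 ratio of TPM (replicate 2 over 1) against the log2 ratio of the estimated transcript length (replicate 1 over 2) for the 34 genes, coloured by pathway; on the dashed line the change in TPM equals that from length alone. Genes whose TPM differed by more than 1.2-fold are named. BRCA1, BRCA2, TP53BP1 and FANCC lie near the line, RAD51B and RAD51D lie away from it, and FANCF rests on 3 and 3.49 estimated counts.

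Whether counts differed beyond read sampling was examined with an exact two-sided binomial test, which compares these libraries and no conditions. Of 17920 genes tested, 3.88% had a Benjamini-Hochberg adjusted p under 0.05. Of the 33 members tested it was 3, PRKDC, PARP1 and RBBP8. Without adjustment 8 members had a p under 0.05, and 13.3% of all genes tested did. PRKDC had 12374 and 12538 counts, a scaled ratio of replicate 2 over replicate 1 of 1.07 (exact 95% interval 1.04 to 1.10), with an adjusted p of 1.67e-05 by the exact binomial test. PARP1 had 17186 and 15573 counts, a ratio of 0.957 (0.936 to 0.978), with an adjusted p of 0.00349 by the exact test. Both were among the most deeply counted members, and the same ratio in TPM was 0.997 for PRKDC and 1.01 for PARP1. RBBP8 had 791 and 892 counts, a ratio of 1.19 (1.08 to 1.31), with an adjusted p of 0.0145 by the exact test. Its ratio in TPM was 0.996, at estimated lengths of 1818 nt in replicate 1 and 2128 nt in replicate 2.

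RAD51D had the lowest ratio of the members, 0.644 (0.476 to 0.865), with an adjusted p of 0.0622 by the exact test. With RLE size factors in place of TMM it passed the threshold as the fourth member. ATM, at a ratio of 1.14 (1.05 to 1.25), had an adjusted p of 0.0593 by the exact test, and BARD1, BRCA2 and FANCL were the other members with an unadjusted p under 0.05. RAD51B, with the highest ratio of 1.34, had an interval of 0.952 to 1.90 that included 1. The intervals of the remaining genes included 1 too, and the narrowest of these, that of XRCC5, ran from 0.963 to 1.03.

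**Figure D5:**
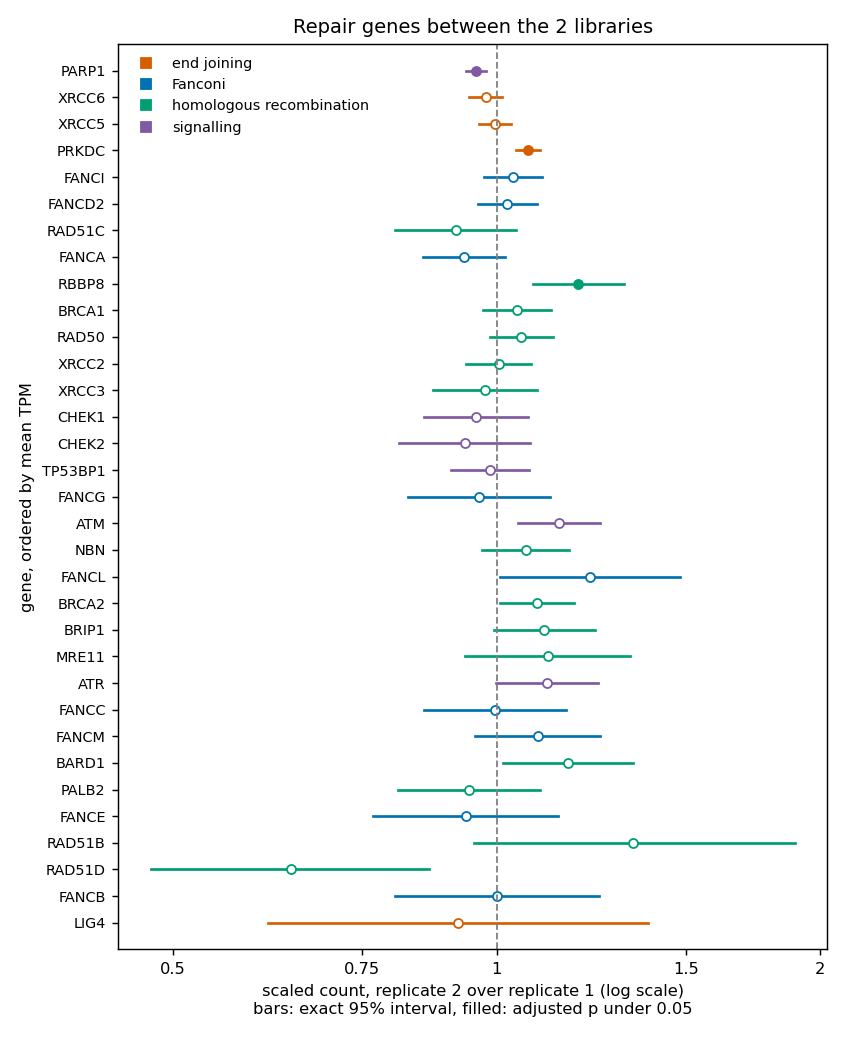
Scaled count of replicate 2 over replicate 1 (log axis) for the 33 members tested, ordered by mean TPM, with exact 95% intervals; filled points had an adjusted p under 0.05. PRKDC and RBBP8 lie above 1 and PARP1 lies below 1, and the intervals widen toward the genes with few counts, such as RAD51B, RAD51D and LIG4.

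Reads shared with other genes touch some of these values. The counts were whole numbers, to within 0.005, in 20 members in replicate 1 and 16 in replicate 2, and in 15 in both. The posterior SD of the count exceeded 1% of it in 3 members in replicate 1 (FANCL 3.22%, RAD51D 1.14% and FANCA 1.07%) and in 4 in replicate 2 (FANCF 19.2%, RAD51D 3.27%, FANCL 3.01% and FANCA 1.297%). Annotated pseudogene copies, 17 of 7 members, held 10.4 counts in all in replicate 1 and 24.2 in replicate 2. PARP1P1 was highest, with 5.21 and 12.9, against 17186 and 15573 for PARP1. Exons of another gene overlapped those of 20 members by at least 50 nt. The longest overlaps were of XRCC3 with KLC1 (5756 nt, 1092 and 971 counts for KLC1), of TP53BP1 with TUBGCP4 (3732 nt) and of FANCA with ZNF276 (2409 nt), all on opposite strands. Shorter overlaps on opposite strands were those of NBN with OSGIN2 (827 nt), FANCL with VRK2 (572 nt) and FANCI with POLG (458 nt), among others. VRK2 had 316 and 281 counts, against 204 and 236 for FANCL. The use of strand in counting was not given in the sources used here. The values of XRCC3, TP53BP1, FANCA and the other members with such overlaps are thus uncertain in this respect.

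Many of these genes start close to another gene that runs in the opposite direction. Within 1000 bp such a divergent neighbour was annotated for 14 of the 34 genes (41.2%), and for 13.6% of all protein-coding genes. Within 500 bp it was 12 genes (35.3% against 12.1%). With the starts of the canonical transcripts in place of the gene starts, chosen after the data were seen, it was 13 genes (38.2% against 15.8%), of which 10 were the same: FANCM, LIG4, RAD51D and TP53BP1 had no such neighbour by that start, and BRCA2, CHEK2 and FANCL gained such a neighbour. By gene starts the 14 genes are ATM, BARD1, BRCA1, FANCB, FANCM, LIG4, MRE11, PALB2, PRKDC, RAD51C, RAD51D, TP53BP1, XRCC3 and XRCC6. The share was not taken over detected genes alone, although 33 of the 34 genes were detected and 63.7% of protein-coding genes were. The comparison is of annotation, not of the libraries.

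The levels of the neighbours varied, and they are given by gene starts. PRKDC shares its start region with MCM4, a subunit of the replicative helicase, which had 474 and 459 TPM against 156 for PRKDC. XRCC6 starts 120 bp from DESI1, with the stretch printed above between the starts, and DESI1 had 98.4 and 96.5 TPM against 437 and 416. LIG4 starts 24 bp from ABHD13 (by gene starts only), which was as low as LIG4, with 1.52 and 1.16 TPM against 1.89 and 1.68. ATM and NPAT were also close in level, 29.3 and 30.02 against 31.1 and 22.3, and so were MRE11 and ANKRD49, 15.3 and 19.3 against 18.5 and 13.6. PALB2 and FANCM were lower than their neighbours, DCTN5 with 63.7 and 54.6 and FKBP3 with 108 and 126. RAD51C and RAD51D were higher than theirs. TEX14, beside RAD51C, had 0.64 and 1.04, and FNDC8, beside RAD51D, had 0 counts in both replicates. BRCA1 starts beside NBR1 by gene starts, with 29.8 and 29.3 TPM, and beside NBR2 by the canonical start, with 9.23 and 3.81.

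The study mapped genes near which rDNA, the ribosomal RNA gene arrays, makes contact. It printed those above a threshold of contact reads, so genes off that list may also contact rDNA. Of the 34 genes 7 (20.6%) are on the printed list, as are 16.0% of 19384 protein-coding genes by their current symbols. The 7 genes are RBBP8, CHEK2, NBN, ATR, BARD1, RAD51B and RAD51D. The list was not made from these libraries. The median TPM of the 7 genes was 15.9 in replicate 1 and 18.1 in replicate 2, and that of the other 27 was 35.5 and 32.9. The levels of the 7 genes ran from 8.78 for RAD51D to 59.8 for RBBP8 and lay within the range of the others. Their median span on the genome was 84038 bp against 75563 bp, and RAD51B was the longest of the 34 genes with 910440 bp.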

How the data were processed

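Poly(A)+ RNA of 2 HEK293T samples was sequenced with 50 bp reads. The submitters' processing notes name Trimmomatic 0.36, STAR 2.6.1c and RSEM 1.3.1 with the GRCh37 build, while the study's methods name featureCounts for counting with Ensembl release 87. The columns are those of RSEM, and the tables were read as such. Estimated counts as deposited share a read that fits several transcripts or genes among them. TPM values were made by the authors and are scaled by estimated transcript length to 1 fixed total per library, and FPKM values, also deposited, by length and library reads. The authors also deposited scores for uncertainty, namely a posterior SD per count and a lower and upper limit of TPM, and an estimated transcript length. A table of the whole series that pools the reads was not used.

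The libraries held 10593491 and 10104118 estimated counts. A gene with 0 counts may have had up to 3, which is 0.283 and 0.297 CPM. PCR copies of a molecule were not removed by identifiers, so such limits and the Poisson intervals describe counting error alone. Symbols, transcripts and neighbours came from GENCODE release 44 on GRCh37 and matched 96.1% of 57736 identifiers, with all 34 members matched to 1 row.

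The members and lists were chosen with earlier results of these data known. All 34 members are named, with up to 3 of the highest and lowest of each other list (ties at 0 and genes that a description turns on also named), DMC1 always, and neighbours or copies where a result turns on them. 1 gene that the naming rule also covers is not reported here. XRCC4, SPO11 and the kidney markers at 0 were named after their values were seen. Groups were summarised by the median TPM, given as mean ± SD over 2 replicates. Between the libraries, counts rounded to whole numbers were tested by the exact two-sided binomial test in scipy 1.17.1, with library sizes scaled by TMM in edgeR 4.0.16 (R 4.3.3). Genes whose counts added up to 10 or more were tested, and p-values were adjusted over them after Benjamini and Hochberg. In simulated data for this test, 164 of 200 genes with a 1.5-fold change were found and 9 others were called (17957 genes), and 199 of 200 with a 2-fold change were found and 10 others called (17932 genes). The changed genes were drawn only from those with higher counts, and the simulated counts held Poisson error alone. Libraries with further variation may give other figures. Alternatives were other thresholds, units, length corrections, groupings and filters, and leaving out each replicate.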

Additional observations from a re-analysis of the deposited data

How the results depend on the processing

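No paired analysis was possible because both libraries belong to the same group. The number of members detected was 29 to 34 under all 7 alternatives, and the number of other repair genes detected 74 to 78. The number of members that differed between the libraries was 2 to 4, and the number with a divergent neighbour 12 to 15. A setting marked as added was picked once the data had been seen.

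The level of end joining relative to homologous recombination was 11.5 per kb of the longest transcript, 9.66 in counts without length correction, 9.52 on posterior means, 7.23 on means, 9.77 with BRIP1 as a Fanconi gene, 12.7 without the end resection genes and 15.35 without LIG4, which was added. Relative to the Fanconi genes it was 15.55, 18.2, 11.3, 6.99 and 15.2 in the first 5 of these settings, 10.4 over detected genes, 13.6 per kb of the canonical transcript (added) and 15.1 without LIG4 and FANCF (added). Without replicate 1 or 2 these ratios were 10.0 to 11.2 and 12.45 to 13.3.

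The level of the Fanconi genes relative to homologous recombination reversed to 1.04 on means, to 1.02 over detected genes and to 1.02 without FANCF (added). It was 0.529 in counts without length correction, 0.646 with BRIP1 as a Fanconi gene, 0.991 without the end resection genes and 0.722 per kb of the canonical transcript (added), and 0.754 to 0.9002 without either replicate. The detected genes are those without FANCF, so the second and the third of the reversals are the same choice of genes. The causes of the other changes were not tested. With 2 replicates, spread is known only roughly, and depth limits LIG4, RAD51B, RAD51D and FANCF most.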
